A study of Homo sapiens with 14 samples.

Results

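AOPEP encodes aminopeptidase O, a zinc-dependent enzyme that removes amino acids from the N-terminal end of peptides, and its gene lies on human chromosome 9 at chr9:94726699-95150224 (hg38). Regions bound in GATA3 ChIP-seq were taken as members when they overlapped this gene span of 423.5 kb or the 100 kb on either side, a window of 623.5 kb at chr9:94626699-95250224. A region is a stretch of genome where peaks of the 12 analysed libraries overlapped by at least 1 bp, and a call means that a library's list has a peak in it. The window held 57 of the 78999 regions, which is 0.0722% of them. Of the 57 regions, 47 overlapped the AOPEP span, 7 lay before it and 3 lay after it, inside FANCC. The gene was picked because one of its regions had headed earlier rankings of these same libraries, so the calls that singled it out are given as description and carry no test.

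The libraries came from MDA-MB-231 cells, a human line of triple-negative breast cancer, harvested on day 3 without treatment and precipitated with an antibody against GATA3 itself in all groups. The 6 groups, each with 2 replicate libraries, were A442M GATA3 with a C-terminal FLAG tag (A442M-FLAG), G444E GATA3 with the tag (G444E-FLAG), wildtype GATA3 with the tag (WT-FLAG), untagged A442M, untagged G444E and untagged wildtype (WT). Per the design text, FLAG stabilises GATA3 protein whichever residue is mutated. The labels do not say how the GATA3 forms were introduced, whether a group was 1 clone, or whether replicates were separate cultures, so the spread behind any p-value may be technical. The 2 samples with an empty vector were not analysed here, and peak lists carry no allele by which a genotype could be checked.

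GATA3 is a zinc-finger transcription factor that binds DNA with the letters GATA at its centre and is best known for luminal breast epithelium and T helper cells. It often binds far from promoters, within introns and between genes, and a bound site need not regulate the gene it lies in. AOPEP belongs to the M1 family of metallopeptidases, its mutation is a known cause of dystonia in people, and its locus also hosts the microRNA genes MIR23B, MIR27B and MIR24-1.

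Depth in reads is unknown, because the files list peaks without read counts. The lists held between 25248 and 51694 peaks, 433307 in all, of which 377 lay in the AOPEP window. Each peak has the authors' own score, whose scale the files do not name, and it is given here as a percentile, the share of peaks of the same list with that score or a lower one. Peaks on contigs outside the main chromosomes numbered 57 to 110 in the untagged WT and untagged A442M lists and 14 to 24 in the other lists, so the FLAG contrasts of these genotypes and the contrasts of either with untagged G444E cannot be told apart from whatever this difference reflects.

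The letters of the AOPEP start sites are shown because one of them lies inside a called region and the other has none within 637 bp. Both stretches come from the RefSeq table of GRCh38.p14, plus strand, 5′ to 3′, and run from 250 bases before to 50 bases after a start site. The first, chr9:94726449-94726748, has its 188 bases inside a called region in capitals. The second, chr9:94920968-94921267, has in capitals a match to the reverse complement of AGATAA.
AOPEP first start: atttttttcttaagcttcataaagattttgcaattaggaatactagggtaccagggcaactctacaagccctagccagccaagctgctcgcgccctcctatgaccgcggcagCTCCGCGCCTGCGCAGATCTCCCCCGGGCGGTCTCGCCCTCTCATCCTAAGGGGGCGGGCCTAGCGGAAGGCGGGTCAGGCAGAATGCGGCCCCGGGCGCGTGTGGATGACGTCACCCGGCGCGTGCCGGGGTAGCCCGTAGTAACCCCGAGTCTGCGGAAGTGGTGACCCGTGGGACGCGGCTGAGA
AOPEP second start: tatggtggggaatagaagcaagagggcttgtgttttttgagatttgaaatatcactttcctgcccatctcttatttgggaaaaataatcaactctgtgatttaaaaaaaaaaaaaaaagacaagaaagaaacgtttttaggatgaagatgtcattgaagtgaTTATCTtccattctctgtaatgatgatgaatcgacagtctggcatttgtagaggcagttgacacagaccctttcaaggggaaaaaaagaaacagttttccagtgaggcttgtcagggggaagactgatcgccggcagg
The letters searched on both strands were AGATAA and its variant TGATAA, along with AGATAG as well as its variant TGATAG. The first start had 0 matches and the second had 1, at position 94921130, beside 24.97% of all 35116 promoters of the table with at least 1 match. A match is a description of letters and no measure of binding.

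The microRNA hairpins that lay inside a called region were those of MIR23B (chr9:95085208-95085304) and MIR27B (chr9:95085445-95085541). Their mature products, from RefSeq (GRCh38.p14, plus strand), are given because they name what is transcribed from the bound stretch. Capitals mark the seed, bases 2 to 8, by which a microRNA pairs with its targets.
hsa-miR-23b-3p: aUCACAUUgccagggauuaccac
hsa-miR-23b-5p: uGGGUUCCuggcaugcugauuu
hsa-miR-27b-3p: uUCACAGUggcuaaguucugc
hsa-miR-27b-5p: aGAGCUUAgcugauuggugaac
No seed is shared between these 4 microRNAs.

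The strongest site of the locus lay in the AOPEP span 17.1 kb after the first start site, at chr9:94742922-94744696. It was called in all 10 libraries other than the untagged WT ones. In A442M-FLAG its peak had scores of 554 and 486, which ranked 16 and 14 in those lists. In G444E-FLAG the scores were 312.8 and 255.9, ranked 139 and 142. In WT-FLAG they were 359.1 and 343.4, ranked 101 and 78. Every tagged library thus placed the site among its 142 highest peaks, above the percentile of 99.5. Without the tag, A442M gave scores of 146.9 and 131.4, ranked 1416 and 1488 at percentiles of 96.4 and 95.9. Untagged G444E gave 238.6 and 196.4, ranked 266 and 360 at percentiles of 99.2 and 98.7. Both untagged WT libraries had no peak here. By percentile, untagged A442M lay below untagged G444E and both lay below the tagged groups, with 2 libraries per group. The site was picked on such values, so this order is description, and its share over all regions was not computed. The peaks of the 10 libraries shared a core of 684 bp (chr9:94743538-94744221), their centres lay within 262 bp of each other, and they were 1023 to 1676 bp wide in tagged libraries and 862 to 1111 bp wide in untagged ones.

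The peaks of every list are numbered along the chromosomes, and between 89.06% and 92.01% of the numbers are present, so some peaks were removed before deposit. Around the 17.1 kb site the numbers of the untagged WT lists run on without a gap, 30764 and 30765 in replicate 1, 26420 and 26421 in replicate 2. No numbered peak was therefore left out at this site in WT. Across the 57 regions, 320 combinations of region and library lacked a call, and in 267 of them the numbers on either side were consecutive. In untagged WT this held for 84 of 85. The other 53 combinations came from 21 intervals with 25 missing numbers in all, 6 of them in untagged A442M, 4 in untagged G444E and 1 in untagged WT, so at most that many removed peaks could lie at regions without a call.

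**Figure D1:**
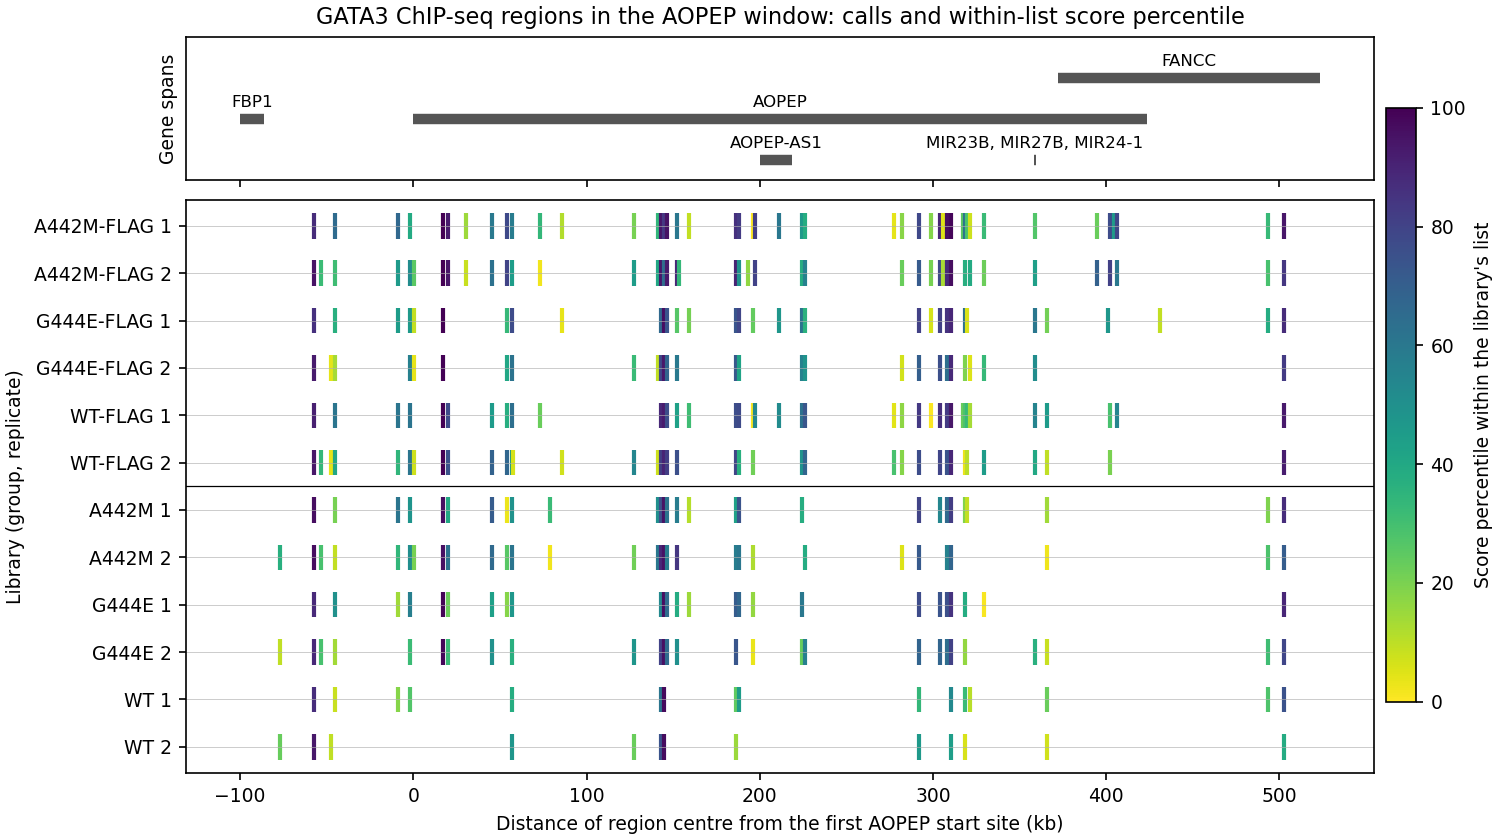
Calls along the AOPEP window. The horizontal axis is the distance of a region's centre from the first AOPEP start site in kb, each line of ticks is 1 library, colour is the score percentile within that library's list, and grey bars above are gene spans. The dark tick at 17.1 kb is present in the 10 upper libraries and missing from both WT lines, which carry 16 and 13 ticks, against 46 and 42 in A442M-FLAG.

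Within the first 60 kb after the start, 4 more regions were called in 8 or more libraries. The site at 19.8 kb (chr9:94746030-94746913) began 1333 bp after the end of the strongest one. It had percentiles of 92.9 and 94.2 in A442M-FLAG, 77.0 and 74.4 in WT-FLAG, 39.9 and 62.4 in untagged A442M, and 22.6 and 32.1 in untagged G444E. G444E-FLAG and untagged WT had no call in either library. The site at 45.6 kb (chr9:94772092-94772500) had the same 8 libraries, with 59.5 and 62.8 in A442M-FLAG, 45.5 and 68.8 in WT-FLAG, 71.4 and 65.7 in untagged A442M, and 43.4 and 49.6 in untagged G444E. At both sites the peak numbers were consecutive in the G444E-FLAG and the untagged WT lists. These are the 2 regions of the window where the tag went with a gained call in both WT libraries and with a lost call in both G444E libraries, 3.51% beside 0.0835% of all regions. They were flagged by this same pattern of calls, so the shares are description only. The site at 19.8 kb never scored above its stronger neighbour, in 0 of 8 lists.

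The other 2 of these regions were more widely called. The site at 53.9 kb (chr9:94780010-94781167) had 77.8 and 79.9 in A442M-FLAG, 33.1 and 40.4 in G444E-FLAG, 37.5 and 67.5 in WT-FLAG, 2.75 and 26.1 in untagged A442M, and 18.1 in replicate 1 of untagged G444E. Its A442M-FLAG percentiles lay above all others, and WT had no call. The site at 56.7 kb (chr9:94783098-94783628) was called in all 12 libraries, at percentiles from 36.9 to 77.1, with 38.0 and 47.6 in untagged WT. The weak sites at 30.6 kb (chr9:94757180-94757492; 14.6 and 8.41 in A442M-FLAG), 73.2 kb (chr9:94799708-94800076; 33.8 and 2.21 in A442M-FLAG, 23.04 in replicate 1 of WT-FLAG) and 79.1 kb (chr9:94805686-94805936; 32.1 and 2.16 in untagged A442M) had no further calls.

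**Figure D2:**
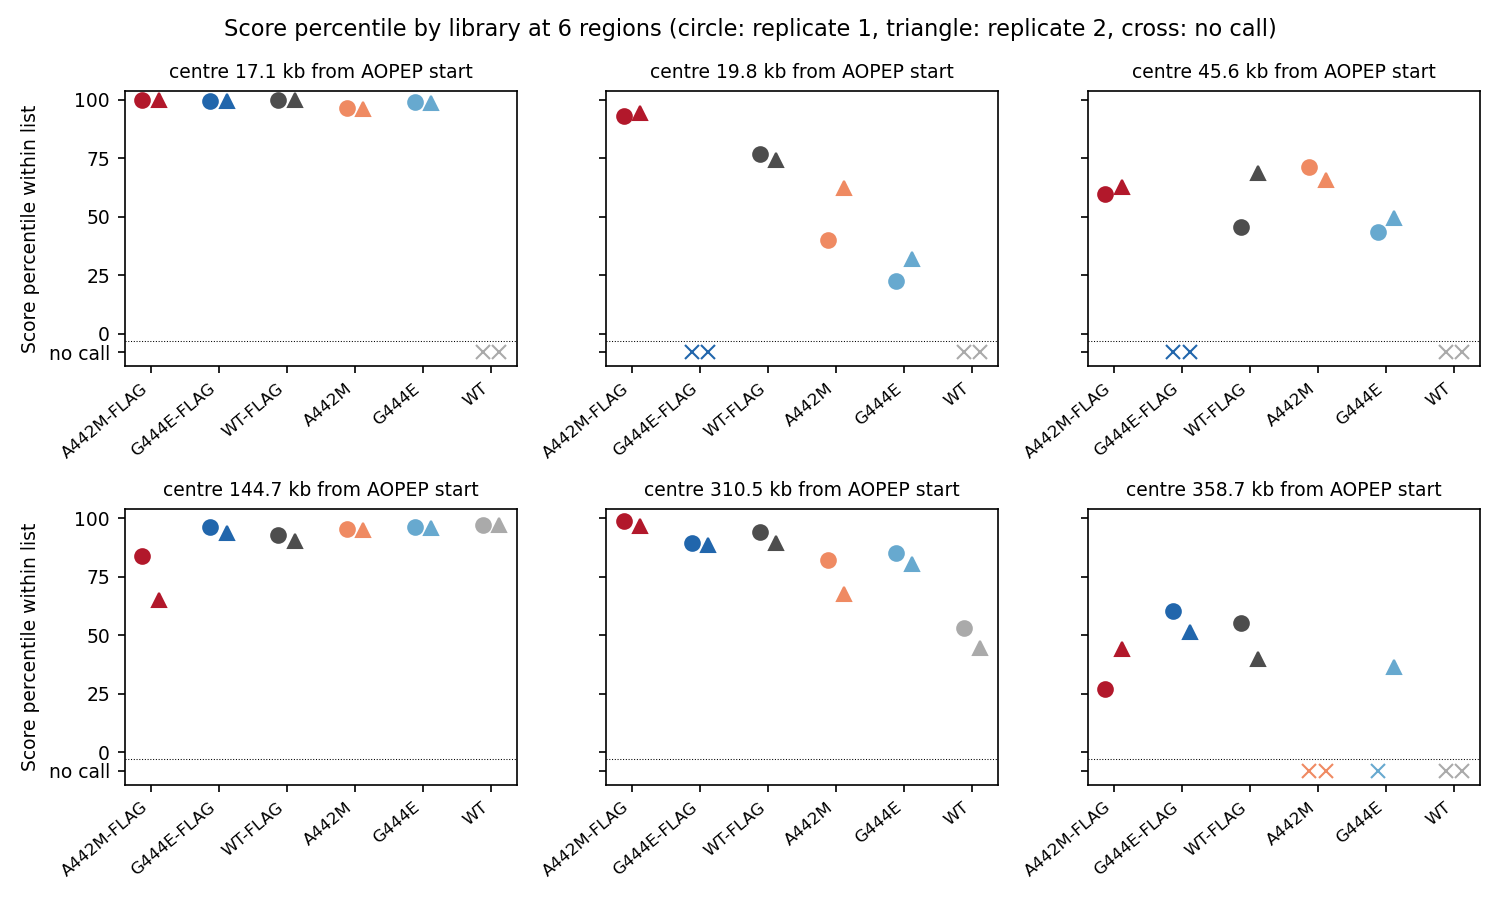
Score percentile (vertical axis) in each library by group (horizontal axis) at 6 regions of the AOPEP window, named by the distance of their centre from the first start site. Circles are replicate 1, triangles replicate 2 and crosses libraries with no call. At 17.1 kb the called libraries lie between 95.9 and 99.97, while at 144.7 kb the A442M-FLAG libraries, at 83.8 and 64.9, are the lowest.

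A cluster of 4 regions called in 10 or more libraries lay 143 to 152 kb into the gene. Its member at 144.7 kb (chr9:94871099-94871740) was called in all 12 libraries and was the highest peak of the window in both untagged WT lists. Its percentiles were 83.8 and 64.9 in A442M-FLAG, 96.2 and 93.6 in G444E-FLAG, 92.7 and 90.4 in WT-FLAG, 95.2 and 95.0 in untagged A442M, 96.2 and 96.0 in untagged G444E, and 97.3 and 97.0 in untagged WT. In untagged WT these stood for scores of 185.5 and 169.4, ranked 790 and 770. The order of the groups was thus unlike that of the site at 17.1 kb, with A442M-FLAG lowest and untagged WT highest. In all 10 lists that held both, the 17.1 kb site scored higher.

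The neighbours of this region showed a different order within the A442M-FLAG lists. The site at 143.1 kb (chr9:94869320-94870171), called in all 12 libraries, had 94.0 and 93.6 in A442M-FLAG, 66.2 and 78.6 in G444E-FLAG, 88.9 and 81.6 in WT-FLAG, 75.8 and 88.7 in untagged A442M, 53.0 and 80.3 in untagged G444E, and 61.0 and 74.5 in untagged WT. It outscored the 144.7 kb site in 2 of 12 lists, both of them A442M-FLAG. The site at 146.7 kb (chr9:94873064-94873704), 1323 bp past the end of the 144.7 kb region, had 95.1 and 93.1 in A442M-FLAG, 73.9 and 67.5 in G444E-FLAG, 76.5 and 81.7 in WT-FLAG, 61.3 and 58.1 in untagged A442M, 64.9 and 64.8 in untagged G444E, and no call in untagged WT. It also outscored the 144.7 kb site in the 2 A442M-FLAG lists and in none of the other 8 lists that called it. The site at 152.3 kb (chr9:94878367-94879560) had 60.5 and 89.5 in A442M-FLAG, 26.5 and 59.6 in G444E-FLAG, 42.9 and 75.6 in WT-FLAG, 58.0 and 84.2 in untagged A442M, 38.6 and 50.3 in untagged G444E, and again no call in untagged WT. Here replicate 2 stood above replicate 1 in all 5 groups with calls. Beside this cluster, the site at 141.1 kb (chr9:94867289-94868267) was called in both untagged A442M libraries (50.1 and 59.9), both A442M-FLAG libraries (34.0 and 39.9) and replicate 2 of G444E-FLAG and WT-FLAG (9.39 and 7.77).

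The middle of the gene, around the second start site, carried 4 regions called in 8 or more libraries. The region at 186.2 kb (chr9:94912112-94913619) was called in all 12, with percentiles of 42.4 to 90.4 in the 10 libraries other than untagged WT and of 24.5 and 15.0 in untagged WT. Its peaks fell into 2 adjoining sites once the 7 peaks that join them were set aside, a division made after their values were seen. The site at chr9:94912201-94912586 was present in the 10 other libraries and absent from both WT ones, and the site at chr9:94912886-94913275 was present in all 12. The region at 187.8 kb (chr9:94914212-94914733) was called in 10 libraries at 36.9 to 82.6, and it lacked calls in replicate 2 of untagged G444E and of untagged WT. The regions at 224.4 kb (chr9:94950721-94951554, 9 libraries, 23.4 to 62.2) and 226.2 kb (chr9:94952446-94953403, 8 libraries, 36.0 to 73.1) were called in all 6 tagged libraries, in some untagged mutant ones and in neither WT library.

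Fewer libraries called the regions next to the second start. The region at 197.0 kb (chr9:94923307-94924123) had 82.4 and 80.2 in A442M-FLAG and 53.2 in replicate 1 of WT-FLAG, with no call elsewhere. The region at 195.8 kb (chr9:94922200-94922848) was called in 7 libraries at 0.201 to 24.03. AOPEP-AS1, an antisense long non-coding RNA gene (chr9:94927020-94945554), overlapped 1 region, which was called in replicate 1 of each tagged group at 47.4 to 60.5. At the first start site the region at chr9:94726561-94727596 was called in 5 libraries with low percentiles, 25.4 in replicate 2 of A442M-FLAG, 9.20 and 3.58 in G444E-FLAG, 7.77 in replicate 2 of WT-FLAG and 20.6 in replicate 2 of untagged A442M. The listed peaks at the start site of AOPEP were therefore weak, while the strongest peaks of the locus lay inside the gene. In the interval that spans this start site, 2 peak numbers are missing in replicate 1 of A442M-FLAG and 1 in replicate 1 of WT-FLAG. Peaks may thus have been removed there in these lists.

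A second cluster lay 292 to 322 kb into the gene. Its strongest region, at 310.5 kb (chr9:95035860-95038588), was called in all 12 libraries, at 98.7 and 96.6 in A442M-FLAG, 89.3 and 88.6 in G444E-FLAG, 94.0 and 89.4 in WT-FLAG, 82.1 and 67.7 in untagged A442M, 85.2 and 80.5 in untagged G444E, and 53.0 and 44.4 in untagged WT. The untagged WT percentiles lay below those of all other libraries. This region too held 2 adjoining sites, joined by 1 wide A442M-FLAG peak, with the division again made after the values were seen. The site at chr9:95035860-95037270 was present in 9 libraries and absent from replicate 1 of untagged A442M and from both untagged WT libraries, while the site at chr9:95037644-95038588 was present in all 12.

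The region at 308.2 kb (chr9:95034469-95035401), 458 bp before it, was called in the 10 libraries other than untagged WT. Its percentiles were 96.3 and 88.0 in A442M-FLAG, 85.2 and 63.7 in G444E-FLAG, 82.6 and 74.5 in WT-FLAG, 66.0 and 56.0 in untagged A442M, and 75.5 and 64.3 in untagged G444E. It scored below its neighbour in all 10 lists. The region at 304.0 kb (chr9:95030264-95031124) was called in all 6 tagged libraries (75.8 to 89.6), in both untagged G444E libraries (74.0 and 67.8) and in replicate 1 of untagged A442M (53.9). The region at 292.1 kb (chr9:95018380-95019224) was called in all 12, with 68.2 to 83.5 outside untagged WT and 34.0 and 46.3 in untagged WT. Lower percentiles in untagged WT than in all other libraries were therefore seen at 3 of the 8 regions called in all 12 libraries, those at 186.2, 292.1 and 310.5 kb, which is 37.5% beside 24.9% of all regions called in all 12.

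Between 277 and 330 kb lay 9 further regions. The region at 318.5 kb (chr9:95044656-95045749) was called in 11 libraries at 3.00 to 63.2. Those at 277.4 kb (chr9:95003862-95004248), 281.9 kb (chr9:95008309-95008873), 299.0 kb (chr9:95025258-95026136), 305.7 kb (chr9:95032207-95032593), 317.3 kb (chr9:95043821-95044222), 319.6 kb (chr9:95045884-95046676), 321.6 kb (chr9:95047331-95049272) and 329.4 kb (chr9:95055875-95056346) were called in 2 to 6 libraries each. None of these 8 regions passed a percentile of 44.9 in any library. Those at 277.4, 281.9 and 319.6 kb were called in both WT-FLAG libraries and in neither untagged WT library. Those at 299.0, 305.7, 321.6 and 329.4 kb were called in both A442M-FLAG libraries and in neither untagged A442M library.

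The region over the microRNA genes lay at 358.7 kb (chr9:95085114-95085619). It was called in all 6 tagged libraries, at 27.0 and 44.1 in A442M-FLAG, 60.2 and 51.2 in G444E-FLAG, and 55.0 and 39.98 in WT-FLAG, and in 1 untagged library, replicate 2 of G444E, at 36.5. Peaks of 6 of these 7 libraries covered the whole MIR23B hairpin and those of 1 library the whole MIR27B hairpin, while the MIR24-1 hairpin lay 402 bp outside the region. Fisher's exact test on calls, two-sided, gave p = 0.0152 for 6 of 6 tagged against 1 of 6 untagged libraries. After Benjamini-Hochberg adjustment this Fisher p was 0.117, above the threshold of 0.05. The lowest adjusted p of any region in this test was 0.104, so no region passed. The result therefore does not show whether this region differs. With labels exchanged only within a replicate number, the exact permutation p was 0.02 and its adjusted value 0.0680. In the untagged A442M lists and in replicate 1 of untagged G444E, peak numbers are missing in the interval that spans this region, so a peak may have been removed there, whereas the WT numbers are consecutive. The region at 365.7 kb (chr9:95091724-95093000) was called in 8 libraries at 2.52 to 45.6 and in neither A442M-FLAG library.

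In the stretch where the spans of AOPEP and FANCC overlap, calls were almost confined to A442M-FLAG and WT-FLAG, with 1 exception, a G444E-FLAG peak at percentile 47.1. FANCC encodes a subunit of the Fanconi anaemia core complex, which acts in the repair of DNA crosslinks. The region at 402.3 kb (chr9:95128250-95129813) had 77.3 and 80.5 in A442M-FLAG and 29.1 and 20.2 in WT-FLAG. The region at 406.4 kb (chr9:95132921-95133319) had 78.7 and 60.1 in A442M-FLAG and 54.5 in replicate 1 of WT-FLAG, and the region at 394.4 kb (chr9:95120938-95121342) had 22.9 and 69.5 in A442M-FLAG alone. No untagged library called any of the 5 regions of this stretch, beside 30.2% of all regions that were called in tagged libraries only. In replicate 1 of untagged G444E, 1 peak number is missing in the interval that spans all 5. Further into FANCC, the region at 502.7 kb (chr9:95229092-95229707) was called in all 12 libraries, at 71.0 to 94.0 outside untagged WT and at 74.8 and 39.0 in untagged WT. The region at 493.6 kb (chr9:95220068-95220555) was called in 7 libraries at 19.5 to 38.5 and in neither WT-FLAG library.

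Before the gene, the region at -57.35 kb (chr9:94668938-94669766) lay in no annotated gene and was called in all 12 libraries. Its percentiles stayed within a narrow band, 87.5 and 95.2 in A442M-FLAG, 86.1 and 92.7 in G444E-FLAG, 91.3 and 93.9 in WT-FLAG, 96.2 and 96.6 in untagged A442M, 88.7 and 88.8 in untagged G444E, and 87.3 and 93.4 in untagged WT. Both untagged A442M libraries lay above all others. Among the other 5 groups, untagged G444E lay below WT-FLAG, while all other pairs overlapped. How often such an order occurs over all regions was not computed. The region was the highest peak of the window in replicate 2 of untagged A442M. The regions at -44.98 kb (chr9:94681483-94681964, 11 libraries), -8.67 kb (chr9:94717745-94718315, 9 libraries) and -1.78 kb (chr9:94724528-94725307, 11 libraries) had percentiles of 8.49 to 66.7. The first of these overlapped LOC124902219, a long non-coding RNA gene. The other annotated genes of the window, LOC107987101, LOC124902220, LOC107987102, MIR2278, MIR6081, MIR3074, RPS26P37, RNA5SP288 and LOC124902339, overlapped no region. FBP1, which encodes the gluconeogenic enzyme fructose-1,6-bisphosphatase and ends inside the window, held no region there.

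Counted over the locus, untagged WT stood apart. Its libraries called 16 and 13 of the 57 regions, 28.1% and 22.8%, beside 35.4% and 31.1% of all 78999 regions. Every other library called a larger share of the locus than of all regions, from 80.7% beside 63.5% in replicate 1 of A442M-FLAG to 49.1% beside 48.7% in replicate 1 of untagged A442M. Neither untagged WT library called 38 of the 57 regions, 66.7% beside 57.5% of all regions. The pattern of the 17.1 kb site, a call in every library except untagged WT, was shared by 4 locus regions, 7.02% beside 2.61% of all regions. These were the regions at 17.1, 146.7, 152.3 and 308.2 kb. Calls in all 12 libraries were no more frequent at the locus than elsewhere, 8 regions or 14.0% beside 13.8%. Only 6 regions were called in 1 library alone, 10.5% beside 23.5%, and 24 were called in 8 or more, 42.1% beside 32.1%. Calls in tagged libraries alone were near the background, 18 regions or 31.6% beside 30.2%, and those in untagged libraries alone numbered 2, 3.51% beside 12.2%. Calls also followed the replicate number in places: 3 regions were called in 3 or more libraries that were all of replicate 2, 5.26% beside 1.69%, those at -77.27, -53.34 and -47.51 kb, and 2 in 3 or more that were all of replicate 1, 3.51% beside 5.09%. The shares were not tested, since neighbouring regions are not independent and the gene was picked on such calls.

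**Figure D3:**
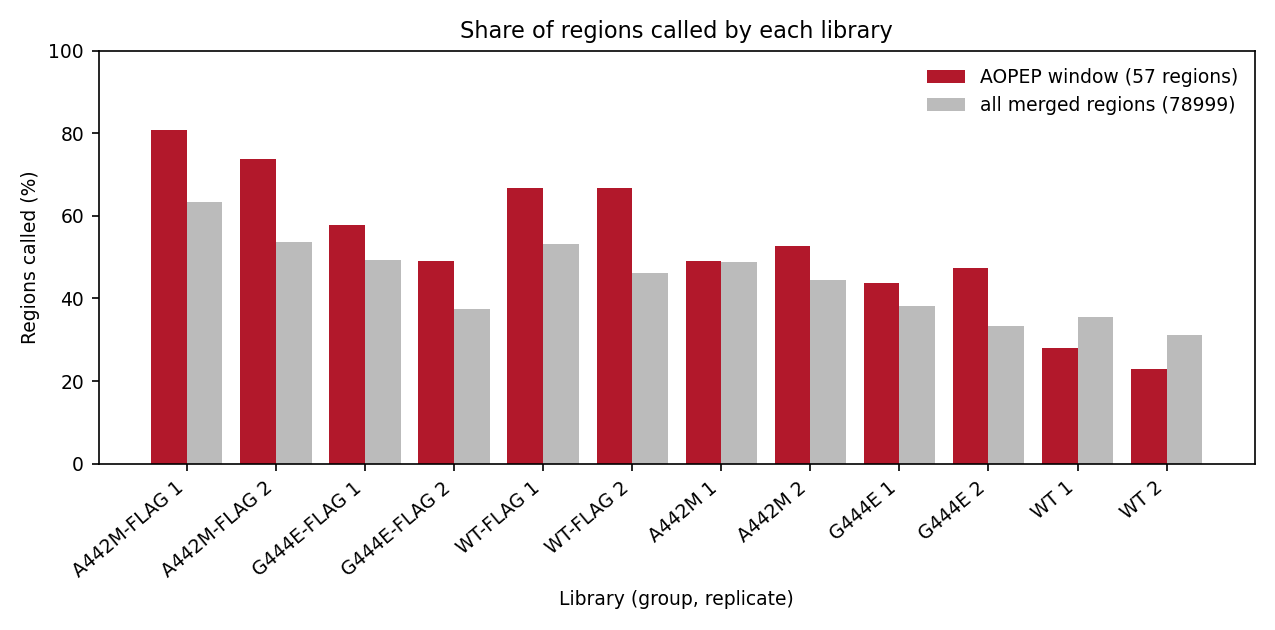
Share of regions called by each library (vertical axis, percent), over the 57 regions of the AOPEP window (red) and over all merged regions (grey). The red bar is above the grey one in 10 libraries and below it in both untagged WT libraries.

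Pairs of groups were compared by counting regions that one group called in both libraries and the other in none, without a test, since 2 libraries against 2 cannot give a p below 1 in 3. Untagged A442M had 9 such regions against untagged WT, 15.8% of the locus beside 7.02% of all regions, and WT had 0 against A442M, beside 0.689%. Untagged G444E had 9 against WT, 15.8% beside 5.09%, and WT had 0, beside 3.66%. WT-FLAG had 16 against untagged WT, 28.1% beside 12.3%, and untagged WT had 0, beside 3.17%. These 3 comparisons share the same 2 WT libraries, and they are the ones in which the 17.1 kb site had been found, so their excess is read no further. The regions at 17.1, 19.8, 45.6, 146.7, 152.3 and 308.2 kb were in all 3 sets. Regions called by all 4 libraries numbered 9 for A442M and WT, 15.8% beside 21.4%, 9 for G444E and WT, 15.8% beside 16.7%, and 10 for WT-FLAG and WT, 17.5% beside 17.8%, so sharing with untagged WT was at or below the background.

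Among the tagged groups, A442M-FLAG had 4 regions against WT-FLAG, 7.02% beside 5.97%, and WT-FLAG had 1 against it, 1.75% beside 1.58%, both close to the background. G444E-FLAG had 0 against WT-FLAG, beside 0.465%, and WT-FLAG had 4 against G444E-FLAG, 7.02% beside 2.19%, at 19.8, 45.6, 277.4 and 402.3 kb. A442M-FLAG had 9 against G444E-FLAG, 15.8% beside 9%, and G444E-FLAG had 0, beside 1.12%. Among the untagged mutants, A442M had 2 regions against G444E, 3.51% beside 5.36%, and G444E had 0, beside 0.892%. Sharing among these groups was more frequent at the locus than over all regions. All 4 libraries called 26 regions for A442M-FLAG and WT-FLAG, 45.6% beside 30.7%. They called 21 for G444E-FLAG and WT-FLAG, 36.8% beside 27.3%, and 21 for A442M-FLAG and G444E-FLAG, 36.8% beside 26.3%. For untagged A442M and G444E they called 16, 28.1% beside 22.9%.

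Tagged libraries called more locus regions than untagged ones of the same genotype, 46 and 42 in A442M-FLAG against 28 and 30 in A442M, 33 and 28 in G444E-FLAG against 25 and 27 in G444E, and 38 and 38 in WT-FLAG against 16 and 13 in WT. Over all regions, too, tagged libraries called larger shares than untagged ones of the same replicate number. These shares were 63.5% and 53.6% in A442M-FLAG against 48.7% and 44.6% in A442M. They were 49.4% and 37.5% in G444E-FLAG against 38.3% and 33.3% in G444E. For wildtype they were 53.2% and 46.2% in WT-FLAG against 35.4% and 31.1% in WT. In calls made by both libraries of a group and none of the other, A442M-FLAG had 11 regions against untagged A442M, 19.3% beside 10.8%, and untagged A442M had 2 against it, 3.51% beside 4.06%. Of these 11, the best scored were at 197.0 and 402.3 kb. G444E-FLAG had 1 region against untagged G444E, the one at the first start site, 1.75% beside 2.19%, and untagged G444E had 2 against it, those at 19.8 and 45.6 kb, 3.51% beside 0.429%. The count of 1 depended on single libraries, with 5 without replicate 1 of G444E-FLAG, 7 without its replicate 2 and 3 without either untagged G444E library, and it was 4 where a peak had to cover at least 50% of a region and 0 with lists of equal length. All 4 libraries called 21 regions for A442M-FLAG and A442M, 36.8% beside 26.5%, and 17 for G444E-FLAG and G444E, 29.8% beside 22.9%. The difference between genotypes in the effect of the tag was not tested. The list lengths differ in the same sense, 51694 and 42993 peaks in A442M-FLAG against 39700 and 36078 in untagged A442M. With every list cut to its 25248 highest peaks, A442M-FLAG had 4 regions against untagged A442M in place of 11.

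**Figure D4:**
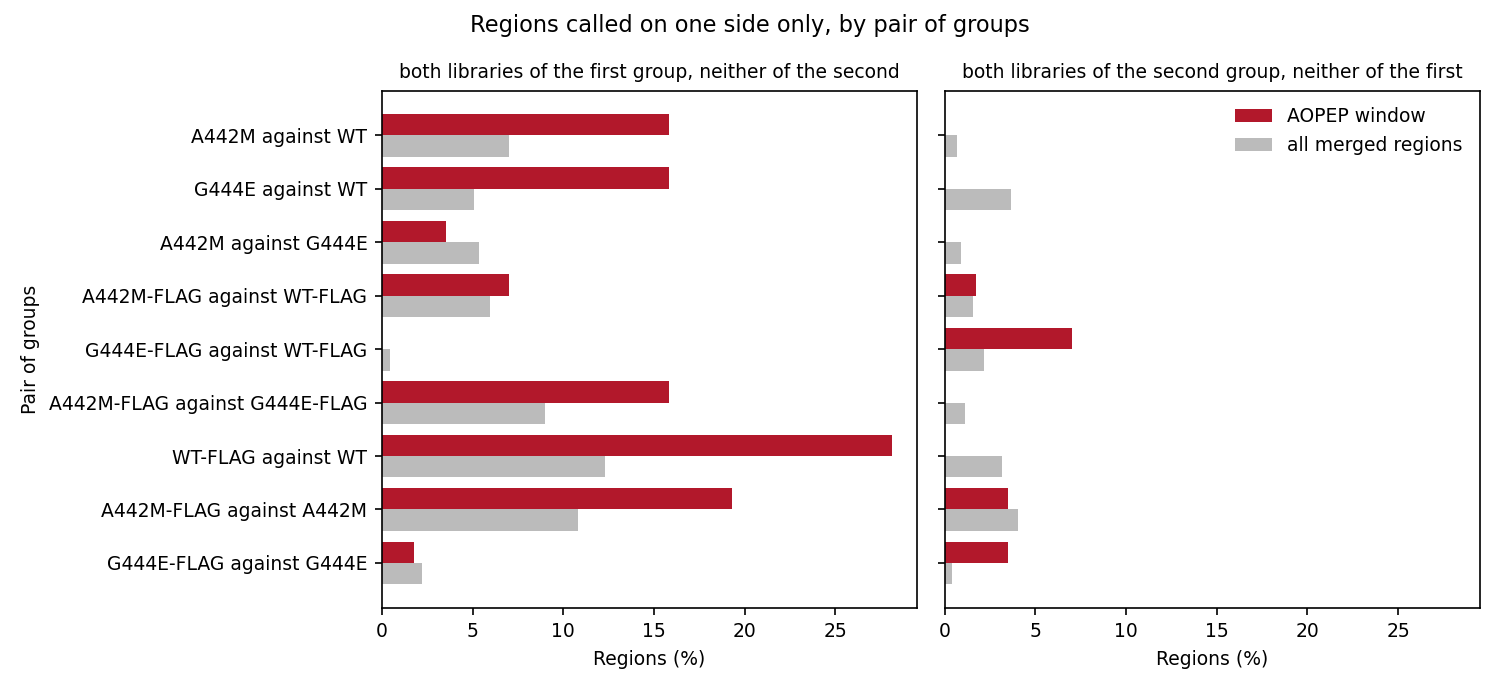
Regions with calls in both libraries of one group and none in the other, as a percent of the 57 AOPEP window regions (red) or of all merged regions (grey), for 9 pairs of groups down the page. The left panel counts the group named first and the right panel the group named second; the longest red bar, at 28.1%, is WT-FLAG against WT.

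Tests of single regions over all libraries called no region at the locus. Fisher's exact test, two-sided with Benjamini-Hochberg adjustment over all regions that could reach the threshold, called 0 of 11 locus regions between 6 tagged and 6 untagged libraries, beside 0% of 11777 regions, and 1 of 11 had an unadjusted p under 0.05, 9.09% beside 12.9%. Between 8 mutant and 4 wildtype libraries it called 0 of 28, beside 0% of 26654 regions, and 0 of 28 had an unadjusted p under 0.05, beside 0.311%. The exact permutation test within replicate numbers also called 0 in both, with an unadjusted p under 0.05 for 1 of 5 regions between tagged and untagged libraries, beside 29.4%, and for 0 of 19 between mutant and wildtype ones, beside 0.808%. The smallest Fisher p that 6 against 6 libraries allow is 0.00217. For any region to pass at that p, 510 regions would have had to meet it, and 246 did. Over all regions the lowest adjusted p of this Fisher test was 0.104. For 8 against 4 libraries the smallest Fisher p is 0.00202, and 2 regions met it where 1077 were needed to pass at that p. Such limits were not computed for the permutation test, which also called 0% of all regions. As these tests called nothing anywhere, they say nothing about whether locus regions differ.

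Among 20033 protein-coding genes, AOPEP ranked 748 by the density of regions in its span plus 100 kb on either side, with 9.14 regions per 100 kb beside a median of 3.27. That put 96.3% of genes below it, and by the number of regions, which grows with gene length, it ranked 22. Without the flanks it ranked 1956 by density. Of regions called in all 12 libraries the window held 8, rank 123, beside a median of 1.

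The M1 aminopeptidase family, a list chosen with earlier results known, had 12 members, and AOPEP had the highest density. ERAP1, which trims peptides for antigen presentation, had 34 regions or 9.07 per 100 kb. RNPEP, aminopeptidase B, had 20 regions or 8.95, and ANPEP, the membrane enzyme CD13, had 19 or 8.26. ERAP2, whose span lies inside that of ERAP1, had 20 or 8.21. The densities of the first 5 genes were thus close to each other. LTA4H, which makes leukotriene B4, had 5.36 per 100 kb, NPEPPS, the puromycin-sensitive enzyme, 5.33, ENPEP, which acts on angiotensin, 4.84, LVRN 4.53 and LNPEP, the oxytocinase, 4.31. RNPEPL1 had 5 regions or 2.35 per 100 kb, and TRHDE, which degrades thyrotropin-releasing hormone, had 3 or 0.383. The median of the family was 5.34 beside 3.27 for all protein-coding genes. A region called in both WT-FLAG libraries and in neither untagged WT library was found at 10 of the 12 members, beside 54.6% of all genes. These shares are not like for like. The windows of members held a median of 15 regions beside 8 for all genes, and AOPEP itself was picked on such calls. ERAP1, ERAP2 and LNPEP lie together on chromosome 5 and are not independent members. The window of ERAP2 lies inside that of ERAP1, so all 20 of its regions are also among the 34 of ERAP1. The window of LNPEP overlaps both.

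**Figure D5:**
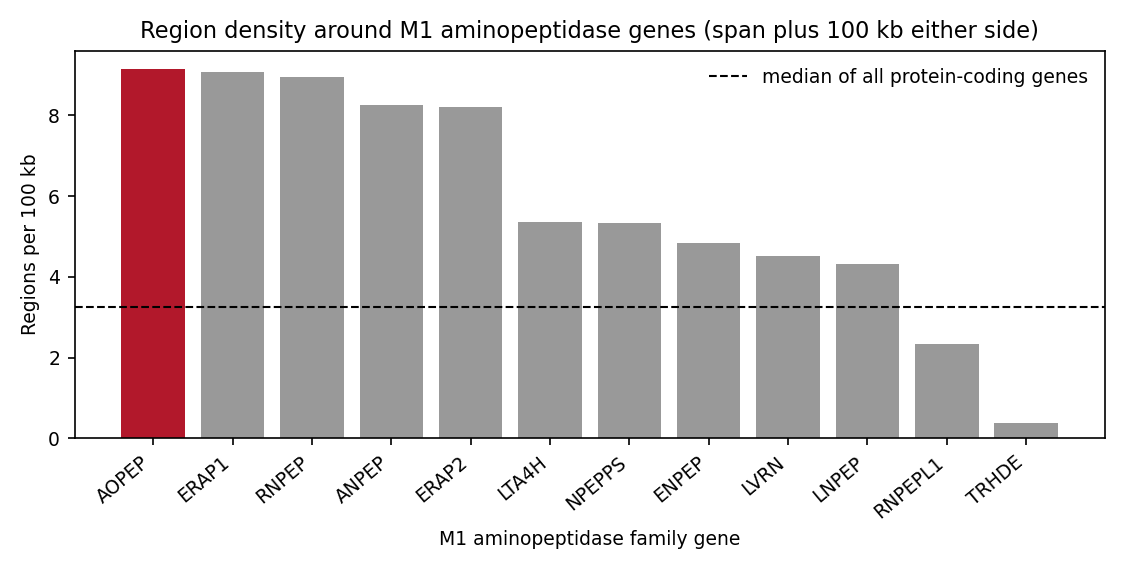
Regions per 100 kb (vertical axis) in the span plus 100 kb either side of the 12 M1 aminopeptidase genes (horizontal axis), with AOPEP in red. The dashed line is the median of all protein-coding genes, 3.27; AOPEP, at 9.14, is the highest and TRHDE, at 0.383, the lowest.

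The regions most like the 17.1 kb site were sought among the 2061 regions called in the same 10 libraries, of which 4 lay at the locus, by the smallest Euclidean distance between their percentiles in these 10 libraries. The 17.1 kb site had the highest median percentile of them all, 99.6 beside a middle value of 63.4. The nearest was at chr1:115536164-115538314, with no protein-coding gene end within 100 kb and a distance of 5.35 percentile points. Next came a region 1983 bp from SIGLEC5, a lectin receptor gene of immune cells (chr19:51631944-51632824, distance 6.31), one 3512 bp from CAP2, a regulator of actin (chr6:17389142-17391024, distance 7.91), one inside C19orf47 (chr19:40330944-40331737, distance 9.21) and one inside SECISBP2L (chr15:49031927-49033321, distance 10.3). Measured by correlation over the same 10 libraries, in place of distance, 0 of these 5 regions were among the 5 most alike.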

How the data were processed

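GATA3 ChIP-seq peak lists of 12 libraries, 1 list per library, were analysed. Per the submitters' processing notes, the tools were FastQC and MACS2 2.1.4, on build hg38. They name no more, with aligner and control not given in the sources used here. The lists are labelled as 5-fold peaks, and no other filter is given there. The deposited lists have 5 columns, the last a score per peak, and no header. The deposited score was at least 5.00, reached 1709, and was used only within its list.

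The members, the M1 family list and the tests were chosen with earlier results of these data known. Peaks were merged at 1 bp overlap. Genes, promoters and microRNAs came from RefSeq tables of GRCh38.p14, which shares its coordinates with hg38. Without exons in the gene table, regions were placed in gene spans only, and no region sequence was read. Coordinates are 1-based. Where a library had several peaks in a region, the highest score counted.

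Named genes were all those whose span overlaps the window, the M1 family, and the 5 regions most like the strongest site. Regions were given with coordinates when called in 8 or more libraries or on one side of any of the 9 pairs of groups. Some of these have only a range of percentiles or a number of calls. The others were mostly given by counts.

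Fisher's exact test on calls was fitted over all regions. The strongest site was not tested. Replicates are numbered 1 and 2 in every group, and the labels do not say what a number shares. Over the 15 pairs of groups, the differences between replicates 1 and 2 correlated across regions at 0.114 to 0.290, all above 0.1. On the evidence of the data alone, same-numbered libraries were treated as pairs in the exact permutation test, which exchanged labels within a number. Fisher's exact test and the counts for pairs of groups took no account of the replicate number. Alternatives were a score of at least 10, lists cut to the same length, calls covering at least 50% of a region, peaks merged up to 200 bp apart, flanks of 50 and 0 kb, and each library left out. Python 3.11.15, numpy 2.4.6, pandas 2.3.3, scipy 1.17.1 and matplotlib 3.10.9 were used.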

Additional observations from a re-analysis of the deposited data

Results flagged for a closer look

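The regions at 19.8 kb (chr9:94746030-94746913) and at 45.6 kb (chr9:94772092-94772500) stood out because the tag went with opposite changes in 2 genotypes. Each was called in 8 libraries. WT-FLAG called them in both libraries and untagged WT in neither, whereas G444E-FLAG called them in neither library and untagged G444E in both. All 4 A442M libraries called both regions. The difference between the genotypes was not tested. They were 2 of the 57 regions of the window, 3.51%, beside 0.0835% of all 78999 regions with the same calls in these 4 groups. The pattern counted is the one by which the 2 regions were flagged, so these shares are description only. The contrast of WT-FLAG with untagged WT also cannot be told apart from whatever their difference in contig peaks reflects. In untagged G444E the percentiles were 22.6 and 32.1 at 19.8 kb and 43.4 and 49.6 at 45.6 kb.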

How the results depend on the processing

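A value was counted as keeping its size when it stayed within a set ratio of the main value. By this rule 38 window regions in place of 57 counted as kept. Counts for single pairs of groups were tallied apart and are given in the next paragraph. Of the other values, 40 of 43 under other settings and 72 of 72 with 1 library left out kept their size. The exceptions were the regions called in all 12 libraries, 2 in place of 8 when a peak had to cover at least 50% of a region, the density rank of AOPEP, 1956 in place of 748 without flanks, and the regions most like the strongest site, of which correlation shared 0 of 5. The window held 38 to 57 regions over all settings, and the strongest site was called in 9 or 10 libraries, 9 when 50% had to be covered. Fisher calls stayed at 0, also with the replicate block and its pairing of same-numbered libraries, which changed no call. The tally includes these calls for both contrasts, each under 8 settings and with each of 12 libraries left out. As the tests called nothing over all regions in the main setting, such values say little about stability. With 1 library left out, the count for the strongest site could only be 9 or 10.

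Counts for single pairs of groups moved more. With lists of equal length, A442M-FLAG had 4 regions against untagged A442M in place of 11, and 1 against WT-FLAG in place of 4. In that setting untagged WT and untagged G444E each had 2 regions against untagged A442M in place of 0. Leaving out replicate 1 of untagged A442M or of untagged WT gave 14 regions for A442M against WT in place of 9, and leaving out replicate 2 of A442M-FLAG gave 17 against untagged A442M and 14 against G444E-FLAG in place of 9. Without replicate 1 of G444E-FLAG or replicate 2 of WT-FLAG, WT-FLAG had 8 regions against G444E-FLAG in place of 4. For G444E-FLAG against untagged G444E, 1 region became 0 to 7. A group with 1 library meets the rule more easily, by construction. With 1 library left out, 180 of 216 counts for single pairs kept their size, and under other settings 90 of 108 did. Depth is unknown, so an absent call cannot be told apart from a peak just under the authors' threshold.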
